A study of Mus musculus with 16 samples.

Results

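The 34 genes described here encode the enzymes that make and recover purine and pyrimidine nucleotides. They were chosen by gene symbol, and all 34 have a row among the 54532 genes of the count table and counts in this experiment, in which 28205 genes have at least 1 count. By role, 2 genes supply phosphoribosyl pyrophosphate (PRPP), 6 carry the de novo purine pathway, 4 lead from IMP to GMP and AMP, 4 carry the de novo pyrimidine pathway up to CTP, 5 act on deoxynucleotides, 3 are deoxynucleoside kinases, 7 act in salvage of bases and nucleosides, and 3 are nucleotide kinases.

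The cells were TCF1+CD8+ T cells of C57BL/6J mice, obtained by culturing naive splenic CD8 cells for 4 days with repeated activation, so that they model antigen-experienced stem-like cells in vitro and were not taken from tumours. In 2 of the groups the cells were first exposed to prostaglandin E2 (PGE2), a lipid mediator, at 100 ng/mL for 1 h. In the other 2 groups they were not. Whether PGE2 was removed before the next step is not stated in the sources used here. Below, with PGE2 or in its presence means in the exposed groups. All cells then spent 4 h with IL-2 at 85 U/ml, which the controls received too, and those called stimulated also met beads carrying antibodies to CD3 and CD28, at 1 bead per cell. This gave 4 groups of 4 samples: unstimulated, unstimulated with PGE2, stimulated, and stimulated with PGE2. The sources used here do not say whether samples of 1 group came from separate mice or cultures, so the p-values measure only the spread between these samples, which may be technical.

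A T cell that prepares to divide needs nucleotides for RNA and DNA. The de novo routes build the purine and pyrimidine rings on PRPP from amino acids, bicarbonate and one-carbon units carried by folate, whereas the salvage routes reuse bases and nucleosides. Ribonucleotide reductase and its partners then turn ribonucleotides into DNA precursors, and these enzymes are known for being made mostly in S phase.

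Totals per sample were 22678254 to 42950763 counts, and each of the 34 genes passed the filter on low counts in every comparison. Genes that define CD8 T cells were abundant in every sample (*Cd8a* at 683 to 1206 and *Tcf7*, which encodes TCF1, at 288 to 1534 CPM, the counts scaled to a common library size). Their levels differed between groups: *Tcf7* fell with stimulation, by 1.94 without and 1.53 with PGE2 on the log2 scale. Of 8 identity genes, 6 fell and 2 rose with stimulation in either setting (without PGE2, 34.8% of all genes fell and 31.7% rose). PGE2 lowered *Cd8a*, *Cd8b1* and *Thy1* in both settings and raised *Tcf7* in stimulated cells (0.41). Summed CPM reached at most 21.6 for 6 B cell markers, 10.6 for 3 CD4 T cell markers, 6.79 for 7 myeloid markers and 0.431 for 5 erythroid markers. Of the CD4 T cell markers, *Cd40lg* rose with stimulation (2.93 without and 2.58 with PGE2 on the log2 scale) and *Foxp3* did not pass. *Cd4* itself was too low to be tested in the pairwise comparisons. The 4 NK cell markers summed to 12.7 to 24.05 CPM in unstimulated cells, 5.84 to 11.2 with PGE2, 108 to 181 in stimulated cells and 35.8 to 132 with PGE2. Nearly all of this was *Eomes*, a transcription factor that CD8 T cells also make, which rose with stimulation (2.97 on the log2 scale) and fell with PGE2 in unstimulated cells (−1.13), whereas the NK receptor gene *Ncr1* had no count and *Klrb1c* at most 0.09898 CPM. The part of such cells in the results below was not tested. In bulk RNA, fewer cells of a type and less RNA per cell cannot be told apart.

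The 34 genes together took between 0.279% and 0.539% of all counts of a sample, in the order unstimulated with PGE2 (0.279% to 0.309%), unstimulated (0.361% to 0.398%), stimulated with PGE2 (0.413% to 0.492%) and stimulated (0.488% to 0.539%). Only the ranges of the latter pair overlapped.

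On the length-scaled FPKM values that the authors deposited, *Hprt*, the enzyme that salvages hypoxanthine and guanine, had the highest mean of the 34 genes in all 4 groups, at 138 ± 8.81 in unstimulated and 189.6 ± 11.95 in stimulated cells (SD, n = 4). Second in the unstimulated groups was *Rrm2*, the small subunit of ribonucleotide reductase, at 92.8 ± 6.34 FPKM without and 74.98 ± 8.08 with PGE2. In stimulated cells *Rrm2* ranked lower, at 51.3 ± 5.75 FPKM, and the second place went to *Aprt*, which salvages adenine, at 92.9 ± 14.5. The lowest gene in every group was *Nme2*, a nucleoside diphosphate kinase, at 0.906 ± 0.201 FPKM in stimulated cells. Its value is uncertain, since 48.9% of its exon bases are shared with the readthrough gene Gm20390. Among the others, shared exon bases exceeded 10% for *Gart* (19.7%, with an antisense gene), *Pnp* (18%, with an overlapping coding gene) and *Nme1* (12.5%, with Gm20390). Of the 100-base sequences of *Impdh2*, 31.4% also occur in its pseudogene Impdh2-ps, so its counts may be split.

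**Figure D1:**
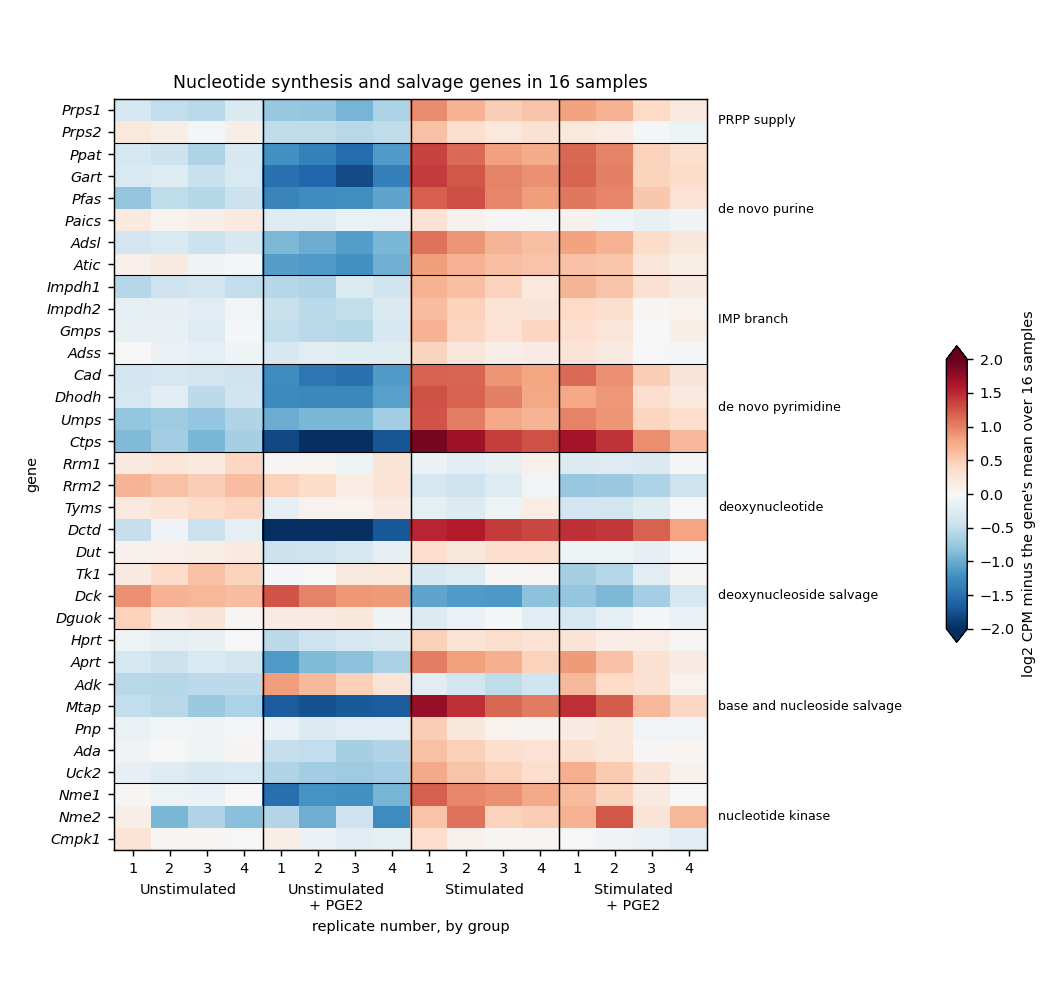
Each row is 1 of the 34 genes, ordered by role, and each column 1 of the 16 samples. Colour gives the sample's log2 CPM minus the gene's mean over all samples. De novo purine and pyrimidine genes other than *Paics* are red in both stimulated groups and blue in unstimulated cells with PGE2, whereas *Rrm1*, *Rrm2*, *Tyms*, *Tk1* and *Dck* run the other way with stimulation and *Adk* is higher in both groups with PGE2.

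Promoters of 32 of the 34 genes, from 250 bases before to 50 after the start, were matched in RefSeq on build GRCm38.p6. They were searched on both strands for CACGTG, the E-box read by MYC and related factors, for TTTCCCGC or TTTGGCGC, forms of the E2F site, and for TGACGTCA, the cyclic AMP response element. The E-box was found for 5 of 32 genes (15.6%), against 8.09% of 27025 genes. The E2F letters were found for 2 genes (6.25%, against 1.80%) and the cyclic AMP element for 2 (6.25%, against 2.03%). The E-box genes were *Atic*, *Tyms*, *Nme1*, *Paics* and *Impdh2*, the E2F genes *Ppat* and *Prps2*, and the cyclic AMP element genes *Dguok* and *Umps*, and no matches of these genes overlapped. The 27025 genes were taken whether or not they are expressed in these cells, whereas the 34 genes all passed the filter on low counts. Shares among expressed genes only were not computed. A match is a description of letters and not of binding. The 4 stretches below hold a match with at most 40 bases on each side, in capitals, and are shown because they belong to a de novo purine gene, a thymidylate gene, a nucleotide kinase and a mitochondrial salvage kinase that responded differently and lie mostly outside exons, unlike the other matches. They lie at chr1:71557109-71557155, plus strand (*Atic*), chr5:30073641-30073726, minus strand (*Tyms*), chr11:93968026-93968094, minus strand (*Nme1*, at the second of its RefSeq starts), and chr6:83506966-83507013, minus strand (*Dguok*). The first 3 carry the E-box and the last the cyclic AMP element.
Atic: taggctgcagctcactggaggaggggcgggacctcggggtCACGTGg
Tyms: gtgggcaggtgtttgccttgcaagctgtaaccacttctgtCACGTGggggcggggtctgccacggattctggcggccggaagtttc
Nme1: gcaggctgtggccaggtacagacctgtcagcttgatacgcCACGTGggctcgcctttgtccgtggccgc
Dguok: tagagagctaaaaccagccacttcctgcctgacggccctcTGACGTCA
The E-box begins 7 bases before the start of *Atic*, 61 before that of *Tyms* and 29 before that of *Nme1*, and the element of *Dguok* spans its start. The values of these genes are given further below. *Atic* and *Nme1* rose with stimulation, whereas *Tyms* and *Dguok* fell, a difference that entered the choice of these stretches and is no result about the motifs.

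The first comparison asked what 4 h of stimulation did to these genes without PGE2. Of the 34 genes, 25 rose (73.5%) and 6 fell (17.6%), where 31.7% of 14205 genes tested rose and 34.8% fell (edgeR's quasi-likelihood test, adjusted p below 0.05). The median log2 fold change was 0.61 for the 34 genes and −0.0315 over all genes tested. With a fold change of at least 2 as well, the definition of a DEG used here, 14 rose and 1 fell, where 23.2% of all genes were DEGs. All 4 genes of the de novo pyrimidine route and 4 of 6 de novo purine genes were among the DEGs that rose. By contrast, all 3 deoxynucleoside kinases and 3 of 5 deoxynucleotide genes fell. Every rise or fall here and below is relative to the other genes of a library. Amounts of RNA per cell were not measured.

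*Ctps*, the CTP synthase that closes the pyrimidine route, changed most. Its level was 44.7, 50.8, 43.7 and 51.9 CPM in the unstimulated samples and 306, 266, 214 and 199 CPM in the stimulated ones. The groups lay far apart, and the rise was 5.12-fold (log2 fold change 2.36, SE 0.128, adjusted p = 2.40e-08). The other pyrimidine genes rose less: *Umps*, which makes UMP, by 1.65, the mitochondrial dehydrogenase gene *Dhodh* by 1.43, and *Cad*, the trifunctional first enzyme, by 1.38 on the log2 scale.

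*Mtap*, which recovers adenine and methionine from the by-product of polyamine synthesis, was at 56.9, 53.9, 47.8 and 51.4 CPM in unstimulated and 267, 219, 177 and 164 CPM in stimulated samples. It rose 3.92-fold without overlap (adjusted p = 8.41e-08). *Dctd*, the dCMP deaminase that feeds thymidylate synthesis, was at 9.32, 12.2, 9.59 and 11.4 CPM and then 36.9, 38.9, 34.2 and 32.4 CPM. It rose 3.32-fold (log2 1.73, SE 0.106, adjusted p = 4.68e-08), opposite to the other genes of its role save *Dut*.

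Within the de novo purine route, *Pfas* (1.64 on the log2 scale, the fourth step), *Gart* (1.47, a trifunctional enzyme), *Ppat* (1.45, the committed first step), *Adsl* (1.18) and *Atic* (0.61, the last pair of steps) rose. *Paics*, which acts between *Gart* and *Adsl*, did not pass the test. Its level was 281, 256, 265 and 279 CPM in unstimulated and 298, 259, 249 and 248 CPM in stimulated samples. The ranges overlapped, and the log2 fold change was −0.047 (SE 0.0749, adjusted p = 0.599 by edgeR). *Ppat* lies head to head with it on the opposite strand and went from 80.6, 75.8, 66.7 and 82.2 CPM to 262, 226, 180.5 and 171 CPM. *Ppat* (chromosome 5, 76913249 to 76951578) and *Paics* (76951307 to 76967509) share 272 exon bases on GRCm38, which are 6.15% of those of *Ppat* and 8.67% of those of *Paics*, and their counts over these bases cannot be told apart without strand. The values of this pair in every sample were picked for display after they were seen.

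Downstream of IMP, both IMP dehydrogenase genes and the genes for GMP and adenylosuccinate synthesis rose: *Impdh1* by 0.95, *Gmps* by 0.60, *Impdh2* by 0.56 and *Adss* by 0.33, all under a fold change of 2. Of the PRPP synthetases, *Prps1* rose by 1.09 and *Prps2* by 0.25. In salvage, *Aprt* (1.13), the uridine-cytidine kinase gene *Uck2* (0.79), the adenosine deaminase gene *Ada* (0.45), *Hprt* (0.44) and the purine nucleoside phosphorylase gene *Pnp* (0.28) rose. Of the nucleotide kinases, *Nme1* rose by 1.00 and *Nme2* by 1.20, whereas *Cmpk1*, which phosphorylates UMP and CMP, did not pass (0.025, adjusted p = 0.813). *Adk*, the adenosine kinase, did not pass either (0.17, adjusted p = 0.06896).

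The genes that fell act on DNA precursors, as do *Dctd* and *Dut*, which rose. *Dck*, which phosphorylates deoxycytidine and other deoxynucleosides, was at 167, 143, 139.6 and 135 CPM in unstimulated and 42.5, 40.2, 39.7 and 49.9 CPM in stimulated samples. That was a 3.41-fold fall and the only DEG that fell (log2 −1.77, SE 0.0926, adjusted p = 1.83e-08). *Rrm2* went from 285, 265, 249 and 272 CPM to 139, 133, 148 and 170.2 CPM, a log2 fold change of −0.87 (adjusted p = 1.89e-06) with no overlap.

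The large subunit of the same enzyme, *Rrm1*, moved less, from 283, 298, 288 and 335 CPM to 232, 215, 225 and 269 CPM (−0.37, adjusted p = 0.00268). *Tyms*, the thymidylate synthase, was at 71.5, 75.3, 80.1 and 84.1 CPM in unstimulated and 54.96, 51.5, 57.9 and 68.7 CPM in stimulated samples (−0.43, adjusted p = 0.00153 by edgeR). Neither gene overlapped between the groups.

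*Tk1*, the cytosolic thymidine kinase, went from 66.7, 76.98, 88.7 and 80.9 CPM to 47.5, 49.6, 59.9 and 60.3 CPM (−0.54, adjusted p = 6.49e-04). *Dguok*, the mitochondrial deoxyguanosine kinase, went from 41.6, 34.3, 36.5 and 30.9 CPM to 25.1, 28.1, 29.4 and 25.97 CPM (−0.41, adjusted p = 0.00216). The remaining gene of the role, the dUTPase gene *Dut*, rose by 0.18 (adjusted p = 0.0266). The rises of *Prps2*, *Pnp* and *Dut* were the weakest. The call of *Prps2* was lost without unstimulated replicate 3 or stimulated replicate 1 (adjusted p up to 0.0749), that of *Pnp* without unstimulated replicate 1, 2 or 3 or stimulated replicate 1 (up to 0.0794), and that of *Dut* without unstimulated replicate 1, 2 or 3 or stimulated replicate 3 (up to 0.0859).

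The fall of *Dck*, *Rrm1*, *Rrm2*, *Tyms*, *Tk1* and *Dguok* can be set beside genes of the cell cycle. Of 30 genes of the S phase machinery that are not among the 34, 22 fell and 1 rose with stimulation, and of 15 genes of G2 and mitosis 14 fell, where 34.8% of all genes fell and 31.7% rose. The medians were −0.44 and −0.81 on the log2 scale. The summed level of the 6 B cell markers was 4.91 to 11.8 CPM in stimulated and 11.7 to 21.6 CPM in unstimulated samples. The part of the cell cycle or of other cells in the values of the 34 genes was not tested.

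The second comparison asked what PGE2 did in unstimulated cells. Of the 34 genes, 25 fell (73.5%) and 1 rose (2.94%), where 15.5% of 14505 genes tested fell and 12.9% rose. The median log2 fold change was −0.37 for the 34 genes and −0.00102 over all genes. Of the 34, 7 were DEGs (6 lower and 1 higher), where 3.38% of all genes were DEGs. All 6 de novo purine genes fell, as did 3 of 4 pyrimidine genes, both PRPP synthetases and 5 of 7 salvage genes. Blocking on the replicate number, 29 of the 34 fell and 2 rose, where 24.2% of all genes fell and 23.6% rose. The second that rose was *Dck* (log2 0.24, adjusted p = 4.59e-05 with the block). Those that fell with the block only were *Umps* (adjusted p = 7.11e-04), *Rrm1* (5.41e-05), *Cmpk1* (1.26e-04) and *Pnp* (0.0354).

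The gene that fell most was *Dctd* (ENSMUSG00000031562, chromosome 8, 48099092 to 48153233, plus strand, GRCm38). Its levels were 9.32, 12.2, 9.59 and 11.4 CPM without and 2.10, 2.12, 2.09 and 3.99 CPM with PGE2. Every PGE2 sample lay below every control, and the fall was 4.17-fold (log2 −2.06, SE 0.215, adjusted p = 5.03e-05). On the log2(FPKM + 1) scale, which understates changes of low genes, the value was −1.23. Of the 4 PGE2 samples, replicate 4 stood above the others, which were nearly equal.

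In the purine route, *Gart* was at 109, 114, 99.5 and 109.9 CPM without and 48.1, 45.3, 39.1 and 52.6 CPM with PGE2 (2.38-fold lower, log2 −1.25, SE 0.0869, adjusted p = 5.20e-06). *Atic* (ENSMUSG00000026192, chromosome 1, 71557150 to 71579631, plus strand) was at 176, 185, 156 and 162 CPM without and 76.3, 74.8, 70.7 and 84.3 CPM with PGE2 (2.26-fold lower, log2 −1.18, SE 0.0737, adjusted p = 3.35e-06). Neither gene overlapped between the groups. *Ppat* (−0.90), *Pfas* (−0.67), *Adsl* (−0.64) and *Paics* (−0.37) fell less on the log2 scale.

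In the pyrimidine route, *Ctps* was at 44.7, 50.8, 43.7 and 51.9 CPM without and 23.6, 20.2, 17.7 and 24.8 CPM with PGE2 (2.26-fold lower, adjusted p = 2.41e-05). *Cad* (−0.97) and *Dhodh* (−0.89) fell, and *Umps* did not pass without the block (−0.19, SE 0.0749, adjusted p = 0.0868).

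*Nme1* (ENSMUSG00000037601, chromosome 11, 93956979 to 93968521, minus strand), which balances nucleoside triphosphates, was at 35.7, 32.5, 32.3 and 34.7 CPM without and 12.3, 15.3, 15.1 and 18.3 CPM with PGE2 (2.25-fold lower, log2 −1.17, SE 0.108, adjusted p = 2.31e-05). *Mtap* was at 56.9, 53.9, 47.8 and 51.4 CPM and then 25.2, 23.8, 24.8 and 25.3 CPM (2.16-fold lower, adjusted p = 2.98e-06). For both genes the 4 samples of each group kept apart from those of the other.

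The gene that rose was *Adk* (ENSMUSG00000039197, chromosome 14, 21052574 to 21448569, plus strand), whose enzyme phosphorylates adenosine to AMP. It was at 35.5, 35.01, 36.4 and 36.5 CPM without and 93.5, 82.3, 72.8 and 62.4 CPM with PGE2, a 2.13-fold rise (log2 1.09, SE 0.103, adjusted p = 2.71e-05). The controls were nearly equal, whereas the PGE2 samples spread widely and all lay above them. The other salvage genes that passed fell: *Ada* by 0.55, *Aprt* by 0.52, *Uck2* by 0.43 and *Hprt* by 0.31, with *Pnp* at −0.17 (adjusted p = 0.0948 without the block).

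The remaining falls were smaller. They were −0.66 for *Prps2* and −0.38 for *Prps1*, −0.36 for *Gmps*, −0.31 for *Impdh2* and −0.19 for *Adss*, and among DNA precursor genes −0.49 for *Dut*, −0.34 for *Tk1*, −0.31 for *Rrm2* and −0.31 for *Tyms*. *Impdh1* (−0.023, SE 0.0804), *Rrm1* (−0.23), *Cmpk1* (−0.21), *Nme2* (−0.27), *Dguok* (−0.14) and *Dck* (0.24) did not pass without the block, and of these *Impdh1*, *Nme2* and *Dguok* did not pass with it. The call of *Adss* was lost when any one library other than control replicate 3 or PGE2 replicate 4 was left out (adjusted p up to 0.0942), that of *Tk1* without control replicate 3 or PGE2 replicate 2 (up to 0.0636), and that of *Tyms* without control replicate 4 (0.0511).

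The third comparison was the effect of PGE2 in stimulated cells. Here 3 of the 34 genes fell (8.82%) and 1 rose (2.94%), where 3.8% of 13922 genes tested fell and 6.04% rose, and 0 of the 34 reached the 2-fold change of a DEG, against 1.75% of all genes. The median log2 fold change was −0.25, against −0.00611 over all genes. Of the 34 values, 31 were below 0, where 49.2% of all genes had a value above 0. Blocking on the replicate number, 26 of the 34 fell and 2 rose, where 20.7% of all genes fell and 19.1% rose. The count thus depends on how the spread between replicate numbers is handled. Pairing by number was not clear for every sample here, as 6 of 8 correlated best with their own number. In both stimulated groups replicates 1 and 2 had higher values for most of the genes than replicates 3 and 4: 27 and 22 of the 34 lay above their group mean in replicates 1 and 2 without PGE2, against 5 and 6 in replicates 3 and 4. With PGE2 these numbers were 27 and 26 against 4 and 7. Without PGE2 the median deviation from the group mean on the log2 scale was 0.205, 0.031, −0.096 and −0.130 for the 34 genes, in replicate order. Over all genes it was 0.035, 0.0042, −0.011 and −0.021. With PGE2 it was 0.200, 0.122, −0.132 and −0.205 for the 34 genes and 0.036, 0.0018, −0.0083 and −0.017 over all genes.

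*Nme1* fell most among the 3, from 79.9, 67.9, 65.7 and 59.2 CPM without to 54.2, 47.6, 39.7 and 35.01 CPM with PGE2. The groups did not overlap and the fall was 1.55-fold (log2 −0.63, SE 0.1201, adjusted p = 0.0101). *Dut*, which removes dUTP and supplies dUMP, went from 179, 166, 178 and 180.0 CPM to 133, 133, 126 and 139 CPM, again without overlap (log2 −0.41, SE 0.0662, adjusted p = 0.00446).

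*Prps2* went from 101, 85.8, 78.04 and 83.8 CPM to 78.8, 75.4, 66.6 and 63.3 CPM (log2 −0.30, SE 0.0827, adjusted p = 0.0468). Its ranges overlapped, and the call was lost when any one library other than replicate 1 with PGE2 was left out, with an adjusted p of up to 0.149.

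*Adk* went from 45.2, 40.5, 36.8 and 39.5 CPM to 82.2, 68.9, 64.3 and 54.98 CPM, a 1.66-fold rise (log2 0.73, SE 0.102, adjusted p = 0.00223). All 4 samples with PGE2 lay above all 4 without. With the block, *Dck* also rose (log2 0.36, adjusted p = 4.07e-04), which in the unblocked fit had an adjusted p of 0.108.

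The other genes did not pass the unblocked test in stimulated cells. Closest were *Dhodh* (−0.51, adjusted p = 0.0552), *Cmpk1* (−0.23, 0.0561), *Gmps* (−0.29, 0.0595), *Hprt* (−0.21, 0.0622) and *Rrm2* (−0.37, 0.0708). Values for the de novo purine genes ran from −0.37 for *Gart* to −0.16 for *Paics*, and those of the remaining pyrimidine genes were −0.36 for *Ctps*, −0.28 for *Cad* and −0.26 for *Umps*. With the block, the genes with an adjusted p of 0.05 or more were *Prps1*, *Impdh1*, *Dguok*, *Pnp*, *Uck2* and *Nme2*.

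**Figure D2:**
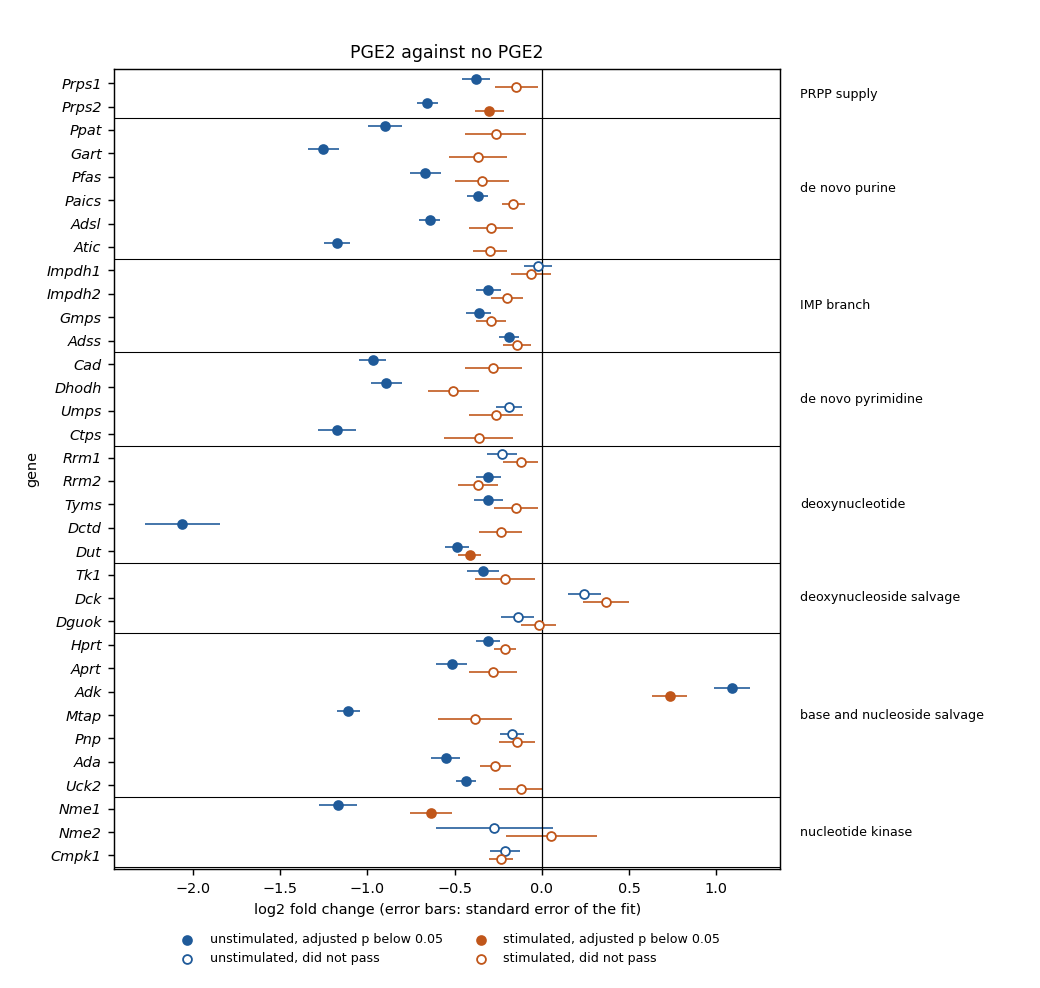
Log2 fold change with PGE2 against without, for each of the 34 genes, in unstimulated (blue) and stimulated (orange) cells. Error bars are the standard error of the edgeR fit, and filled points passed an adjusted p below 0.05. *Dctd* lies furthest left in unstimulated cells, at −2.06, and *Adk* is the only gene with filled points to the right of 0, at 1.09 and 0.73.

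The comparison of stimulation in the presence of PGE2 shares no sample with that in its absence. Of the 34 genes, 26 rose (76.5%) and 4 fell (11.8%), where 32.5% of 14507 genes rose and 31.7% fell. DEGs numbered 17 of the 34 (16 higher and 1 lower), against 22.1% of all genes, and the median log2 fold change was 0.86 against 0.00222 over all genes. The largest rises were those of *Dctd* (12.1-fold, log2 3.597, SE 0.234), *Ctps* (9.25-fold, 3.21), *Mtap* (6.66-fold, 2.74) and *Gart* (5.26-fold, 2.40). All 6 de novo purine genes rose, *Paics* by 0.20 (adjusted p = 0.0305), a call that was lost when any one library other than the replicates numbered 4 was left out (adjusted p up to 0.108).

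*Dck* again fell most (−1.61 on the log2 scale), followed by *Rrm2* (−0.89), *Tk1* (−0.37) and *Dguok* (−0.24). *Rrm1* (−0.22, adjusted p = 0.0582) and *Tyms* (−0.23, 0.0923) did not pass. The call of *Tk1* was lost without unstimulated replicate 2, 3 or 4 or stimulated replicate 1 or 2 (adjusted p up to 0.107), that of *Dguok* when any one library other than unstimulated replicate 4 or stimulated replicate 3 was left out (up to 0.133), and that of *Pnp* without stimulated replicate 2 (0.0529). Of the S phase genes, 22 of 30 fell and 2 rose, and of the G2 and mitosis genes 12 of 15 fell and 1 rose, where 31.7% of all genes fell and 32.5% rose.

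**Figure D3:**
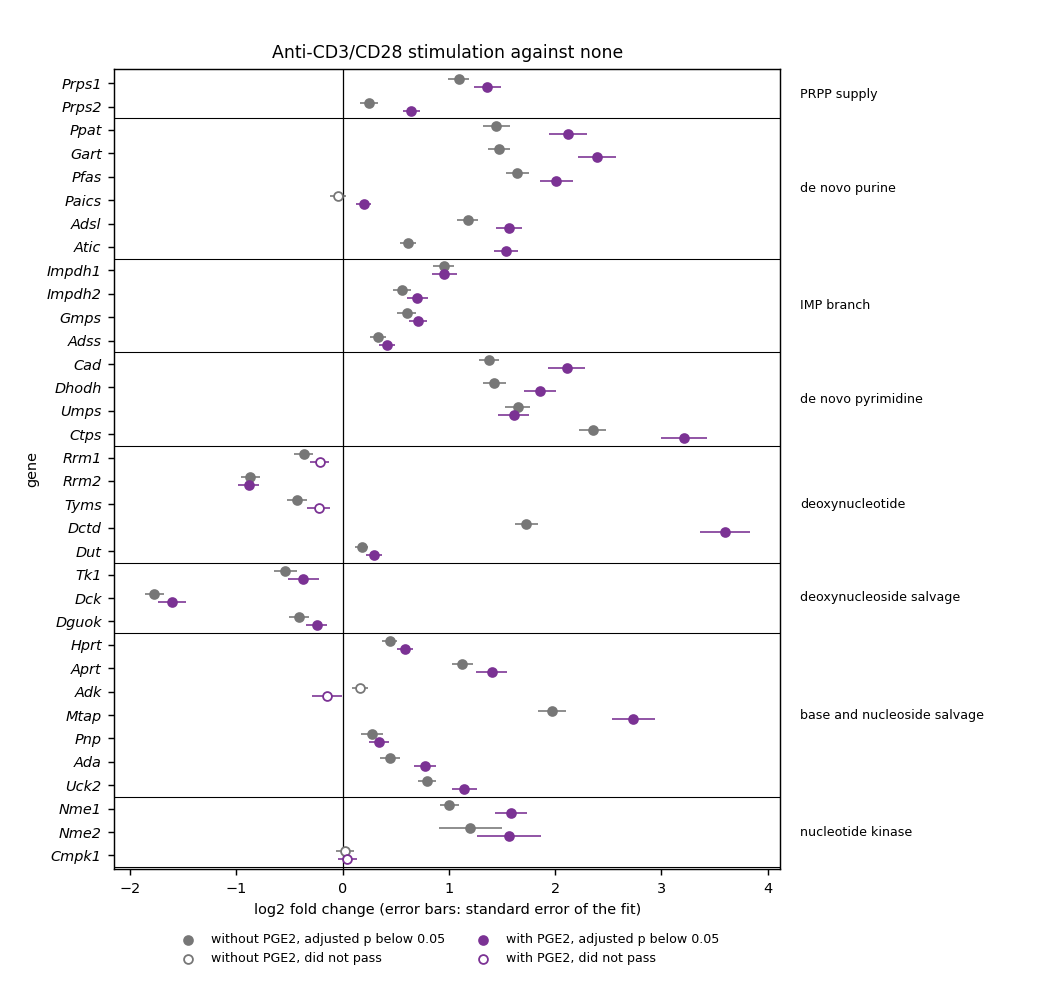
Log2 fold change of each of the 34 genes with stimulation, without PGE2 (grey) and with PGE2 (purple). Error bars are the standard error of the fit and filled points passed an adjusted p below 0.05. Pyrimidine genes, most purine genes, *Mtap* and *Dctd* lie right of 0, and *Rrm1*, *Rrm2*, *Tyms*, *Tk1*, *Dck* and *Dguok* left of 0 in both settings.

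Whether the response to stimulation differed with PGE2 was tested by the interaction term over all 16 samples. It passed for 2 of the 34 genes (5.88%), both with a larger rise in the presence of PGE2, where 0.517% of 15096 genes had a positive and 0.232% a negative interaction past the threshold. Interactions whose size also reached 1 (log2) were found for 1 of the 34 genes and 0.232% of all genes. The median over the 34 genes was 0.23, over all genes 0.0511, and 29 of the 34 values were above 0, as were 61.4% of those of all genes.

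The interaction was 1.84 for *Dctd* (SE 0.2498, adjusted p = 0.00336) and 0.89 for *Atic* (SE 0.1301, adjusted p = 0.00382). *Dctd* rose with stimulation from 10.6 ± 1.41 to 35.6 ± 2.85 CPM without PGE2 and from 2.58 ± 0.944 to 30.4 ± 6.01 CPM with it (mean ± SD, n = 4), so the groups that differed most by PGE2 were the unstimulated ones. *Atic* rose from 169.7 ± 13.3 to 262 ± 21.4 CPM without and from 76.5 ± 5.70 to 214 ± 33.1 CPM with PGE2. In stimulated cells the 4 values with PGE2 were 35.5, 34.4, 29.3 and 22.3 CPM for *Dctd* and 245, 239.7, 194 and 178 CPM for *Atic*, and for each gene they overlapped those without PGE2.

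*Gart* fell just short of the threshold (0.90, SE 0.205, adjusted p = 0.0522), and *Ctps* (0.82, 0.183), *Mtap* (0.74, 0.235) and *Cad* (0.70, 0.132) had larger values than the rest without passing. For *Adk* the value was −0.35 (adjusted p = 0.524), and for *Umps* −0.064, so a difference in their response was not shown.

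**Figure D4:**
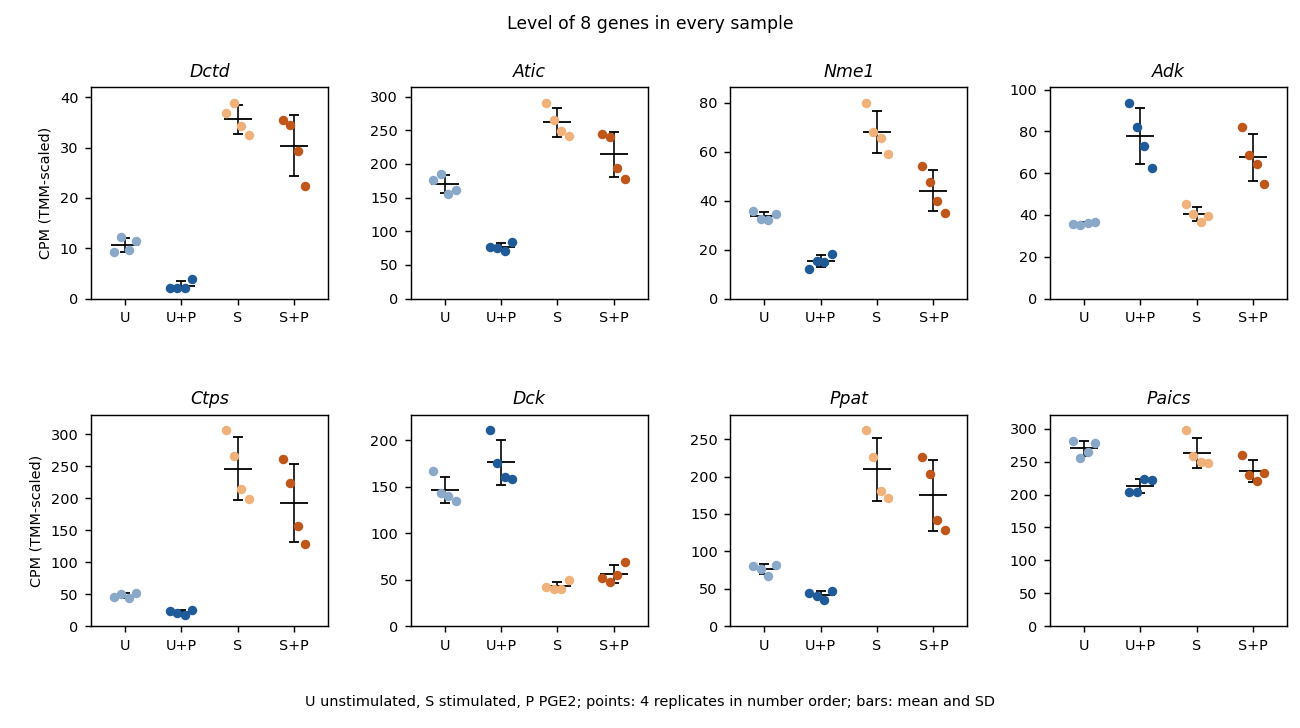
CPM, scaled with TMM factors, of 8 genes in every sample of unstimulated (U) and stimulated (S) cells without and with PGE2 (P), with the mean and SD of each group. *Dctd*, *Atic*, *Nme1*, *Ctps*, *Ppat* and *Paics* have their lowest group mean in unstimulated cells with PGE2. *Adk* is higher in both groups with PGE2, and *Dck* is lower in both stimulated groups. *Ppat* rises with stimulation while *Paics* ranges from 203 to 298 CPM.

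Ratios within a sample compare paralogs or subunits without any library scaling. They are ratios of counts, not scaled by gene length, so only their change between groups was read. The ratio of *Rrm2* to *Rrm1* counts was 0.602, 0.622, 0.655 and 0.634 in stimulated samples without PGE2 and 0.509, 0.506, 0.562 and 0.5404 with it. The groups did not overlap, the log2 difference was −0.25, and the adjusted p was 0.0429 (exact permutation test of 4 against 4, two-sided, adjusted over 3 ratios in 4 comparisons). An unadjusted p of 0.0286 is the smallest that such a test can give. The log2 difference with stimulation was −0.50 without and −0.67 with PGE2 (exact permutation test, adjusted p = 0.0429 for both), whereas PGE2 in unstimulated cells gave −0.078 (0.486).

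The ratio of *Prps1* to *Prps2* was 0.9497, 0.918, 0.993 and 1.07 in unstimulated samples and 1.81, 1.80, 1.72 and 1.70 in stimulated ones. The gap of 0.84 on the log2 scale left no overlap (exact permutation test, adjusted p = 0.0429), and with PGE2 stimulation gave 0.71. PGE2 raised the ratio by 0.28 in unstimulated cells (adjusted p = 0.0429 by the same exact test), and the value in stimulated cells was 0.14 (0.0935). The ratio of *Impdh1*, the form also found in resting cells, to *Impdh2* was higher after stimulation without PGE2 (log2 difference 0.39) and with PGE2 in unstimulated cells (0.28), both with an adjusted p of 0.0429 in the exact test. Its difference was 0.25 for stimulation with PGE2 (0.0762) and 0.14 for PGE2 in stimulated cells (0.0935), and in both the groups overlapped. Since *Impdh2* counts may be split with its pseudogene, its level in this ratio is uncertain. With samples paired by replicate number, an exact sign-flip test gave p = 0.125 for every ratio difference that had passed, the smallest value 4 pairs allow.

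**Figure D5:**
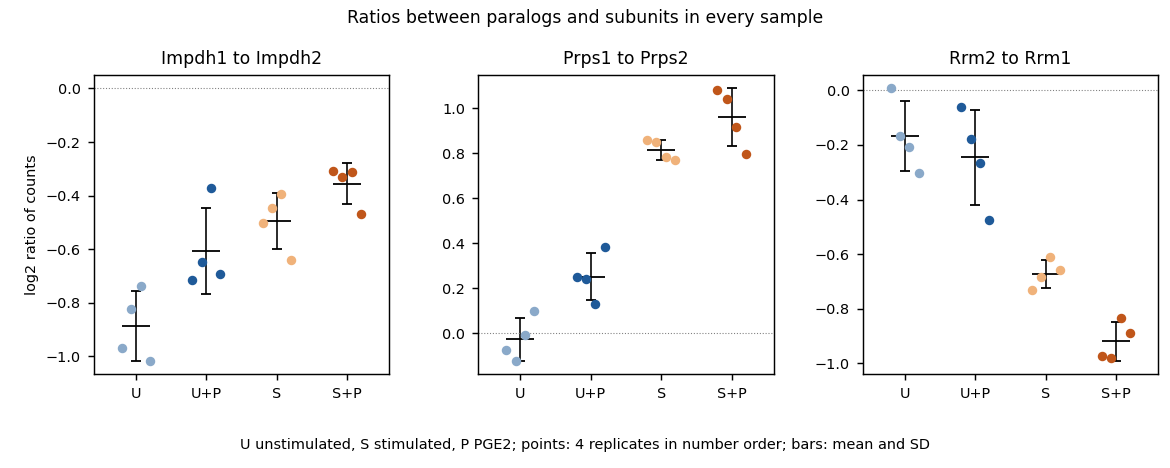
Log2 ratio of counts in each sample for *Impdh1* to *Impdh2*, *Prps1* to *Prps2* and *Rrm2* to *Rrm1*, with the mean and SD of the 4 samples per group (U unstimulated, S stimulated, P PGE2). The ratio of *Prps1* to *Prps2* is higher and that of *Rrm2* to *Rrm1* lower in both stimulated groups than in both unstimulated ones.

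Other genes around the pathway were taken from lists written from general knowledge. Of 15 genes that supply one-carbon units on folate, 14 were tested without PGE2, and 7 rose and 2 fell with stimulation, where 31.7% of all genes rose and 34.8% fell. The largest were *Shmt1*, the cytosolic serine hydroxymethyltransferase (2.65 on the log2 scale), the folate carrier gene *Slc19a1* (2.47), *Fpgs*, which retains folate in the cell (2.08), and the mitochondrial folate carrier gene *Slc25a32* (1.86). With PGE2, 6 of 15 fell and 1 rose in unstimulated cells (15.5% and 12.9% of all genes), led by *Shmt1* (−1.49), *Slc19a1* (−1.45), *Mthfd1* (−1.26) and *Fpgs* (−1.10). In stimulated cells 1 of 14 fell (3.8% of all genes), the mitochondrial enzyme gene *Shmt2* (−0.35, adjusted p = 0.0358). *Slc19a1* was the gene of this list whose interaction passed (1.22, adjusted p = 0.0316): its means were 39.3 ± 1.60 and 219 ± 40.5 CPM without and 14.6 ± 3.49 and 186 ± 55.9 CPM with PGE2 (SD, n = 4), unstimulated first.

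Among 34 genes of nucleotide breakdown, of which 24 were tested, PGE2 in stimulated cells raised 4, where it raised 6.04% of all genes: the uridine phosphorylase gene *Upp1* (1.38), *Nt5e*, which encodes CD73 and makes extracellular adenosine from AMP (1.30), the xanthine dehydrogenase gene *Xdh* (1.13) and *Samhd1*, which hydrolyses deoxynucleoside triphosphates (0.72). *Samhd1* was at 426 ± 26.4 CPM without and 701 ± 61.3 CPM with PGE2. In unstimulated cells 5 of 23 rose and 5 fell, where 12.9% of all genes rose and 15.5% fell. The largest rise, that of *Upp1* (1.72), had a wide error (SE 0.558, adjusted p = 0.0386 by edgeR). *Nt5e* (0.77, SE 0.060, adjusted p = 8.11e-06) came next. Among those that fell were the dCTP pyrophosphatase gene *Dctpp1* (−0.74) and the AMP deaminase gene *Ampd1* (−1.90, on counts of at most 39). Stimulation without PGE2 raised 6 of 23 and lowered 9, counts near the shares of all genes (31.7% and 34.8%), and *Nt5e* fell most (−2.06).

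Of 8 nucleoside transporter genes, 6 were tested. *Slc29a2*, the equilibrative transporter ENT2, rose with stimulation by 3.70 on the log2 scale, from 3.57 ± 0.322 to 46.99 ± 10.3 CPM, and the concentrative transporter gene *Slc28a2* fell by 1.30. With PGE2 in unstimulated cells *Slc29a2* (−1.21), *Slc29a4* (−1.08) and *Slc29a1* (−0.46) fell, and in stimulated cells *Slc28a2* rose (0.47) and *Slc29a1* fell (−0.42).

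A list of 28 related enzymes, mostly isoenzymes and kinases of the same steps, had 21 genes tested for PGE2. In stimulated cells 2 rose and 4 fell (6.04% and 3.8% of all genes), and in unstimulated cells 6 rose and 6 fell (12.9% and 15.5% of all genes). *Ctps2*, the second CTP synthase gene, had values opposite in sign to those of *Ctps*. Its log2 fold change with stimulation was −1.04. With PGE2 it rose by 0.44 in stimulated and by 0.35 in unstimulated cells, the last value having been picked after it was seen. In stimulated cells the value of *Ctps* with PGE2 did not pass the unblocked test, as given above, and passed with the block. Stimulation without PGE2 raised 9 and lowered 6 of 22 genes of this list, near the shares of all genes (31.7% and 34.8%).

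For the S phase list, PGE2 lowered 15 of 30 genes in unstimulated and 8 of 30 in stimulated cells, where it lowered 15.5% and 3.8% of all genes, with medians of −0.21 and −0.26. The largest fall in unstimulated cells was that of *Mcm2*, a helicase subunit (−0.57), and in stimulated cells that of *E2f1* (−0.56). For the 15 genes of G2 and mitosis the medians were 0.0027 and 0.12, with single values from −0.13 to 0.19 in unstimulated and from −0.061 to 0.45 in stimulated cells.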

How the data were processed

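RNA of 16 samples was sequenced as poly(A)-selected, paired-end libraries. The authors aligned reads with HISAT2 2.0.5 to GRCm38 and counted them per gene with featureCounts 1.5.0-p3, and both tables they deposited were used: raw read counts, and FPKM values computed from counts and gene length. The annotation release and the use of strand are not given in the sources used here.

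Counts were filtered (filterByExpr, minimum count 10), scaled with TMM factors and tested over all genes with the quasi-likelihood test of edgeR 4.0.16 (R 4.3.3), without a block, with Benjamini-Hochberg adjustment over all genes tested. Pairwise comparisons used the 8 samples concerned and the interaction all 16. A gene passed at an adjusted p below 0.05, and a DEG also changed at least 2-fold. Standard errors were obtained from the log2 fold change and the F statistic. Ratios of counts (0.5 count added) were compared by exact permutation tests (scipy 1.17.1). The count step was tested on simulated data with known changes of at least 2-fold, a single spread for all genes and no differences between replicate numbers. Smaller changes and differences between replicate numbers were not covered.

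The 34 genes, the gene lists, the motifs and the tests were chosen with earlier results of these data known. Lists came from general knowledge. Values in every sample are given for the genes past the threshold with PGE2 in stimulated cells, the 6 largest changes with PGE2 in unstimulated cells, the 4 largest and all falling genes with stimulation, and the genes with an interaction. Genes outside the 34 are named from the lists, at most the 4 largest per list and comparison. Choices outside these rules are marked.

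Replicate numbers come from the sample names. The numbers were taken to pair samples where the deviations from group means of every same-numbered pair correlated above 0.1. This held for PGE2 in stimulated cells (r from 0.191 to 0.425 over genes, against −0.388 to 0.254 for different numbers). It also held for PGE2 in unstimulated cells (0.137 to 0.443, against −0.378 to 0.122) and stimulation without PGE2 (0.112 to 0.36, against −0.28 to 0.128). It did not hold for stimulation with PGE2 (0.0437 to 0.281, against −0.255 to 0.159). For PGE2 in stimulated cells the pairing was less clear, as 6 of 8 samples correlated best with their own number. There, replicate 2 of each group correlated more with replicate 1 of the other group (0.248 and 0.213) than with its own number (0.191). Alternatives were DESeq2 1.42.0, other scalings and filters, limma 3.58.1 on log2 FPKM with a pseudocount of 1 or 0.1, a replicate block, 1 fit over the 16 samples together and omission of each library in turn.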

Additional observations from a re-analysis of the deposited data

Results flagged for a closer look

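In 7 of 136 sets of 4 libraries (34 genes in 4 groups), 1 library stood apart from the other 3 by Dixon's criterion, which chance alone meets in about 1 of 20 sets. With PGE2 in unstimulated cells, replicate 4 was high for *Dctd* (3.99 CPM, the others at 2.09 to 2.12) and for *Dhodh* (13.5 CPM, the others at 11.8 to 11.9), and replicate 3 was low for *Prps2* (45.99 CPM, the others at 47.4 to 47.6). In unstimulated cells without PGE2, replicate 1 was high for *Cmpk1* (111 CPM, the others at 92.8 to 94.96). In stimulated cells without PGE2, replicate 2 was low for *Dut* (166 CPM, the others at 178 to 180.0) and high for *Nme2* (1.46 CPM, the others at 0.946 to 1.02). In stimulated cells with PGE2, replicate 4 was high for *Rrm1* (245 CPM, the others at 205 to 210.1).

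The response to stimulation differed between cells with and without PGE2 for *Dctd* (interaction 1.84 on the log2 scale, adjusted p = 0.00336) and *Atic* (0.89, adjusted p = 0.00382) by the interaction term of edgeR. Without any single library the interaction of *Dctd* stayed between 1.73 and 2.13 and that of *Atic* between 0.84 and 0.95. On the log2(FPKM + 1) scale the interaction of *Dctd* was smaller, at 0.99, and without a filter on low values its adjusted p was 0.0581 by limma.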

How the results depend on the processing

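No result changed direction under any alternative run. Counts of the 34 genes stayed within 1.5 times the main count in 88 cases and moved further in 20 and, with a library left out, stayed in 91 and moved in 5. For PGE2 in stimulated cells the 3 genes that fell became 9 with DESeq2 and with a single fit of all 16 samples, 5 with upper-quartile factors, 1 with limma on log2(FPKM + 1) without a filter and 26 with the replicate block, and the 1 that rose became 2 with the block. For PGE2 in unstimulated cells the 1 that rose became 2 with upper-quartile factors and with the block. For stimulation with PGE2 the 4 that fell became 2 with limma on FPKM without a filter and 7 with the block, and the 2 positive interactions became 1 and 8. With a fold change of at least 2 added, 0 rose and 0 fell with PGE2 in stimulated cells, 6 fell in unstimulated cells, 14 rose and 1 fell with stimulation, 16 rose and 1 fell with stimulation in the presence of PGE2, and 1 interaction passed. The cause of these shifts was not tested.

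Replicate numbers did not pair the samples for stimulation with PGE2 by the rule above, so its blocked count and that of the interaction stand here only. There 5 of 8 samples correlated best with their own number, against 6 of 8 for PGE2 in stimulated cells. With the block the interaction passed, beside *Dctd* and *Atic*, for *Gart* (adjusted p = 0.00629), *Prps2* (0.0162), *Mtap* (0.0367), *Cad* (0.0376), *Ctps* (0.0438) and *Ppat* (0.0485). The block left the counts of stimulation without PGE2 at 25 and 6. Pairing cannot change a ratio difference, since the mean of the paired differences equals the difference of the group means. The differences that had passed were 0.28 and 0.39 for *Impdh1* to *Impdh2* (PGE2 in unstimulated cells, stimulation). For *Prps1* to *Prps2* they were 0.28, 0.84 and 0.71 (PGE2 in unstimulated cells, stimulation without and with PGE2). For *Rrm2* to *Rrm1* they were −0.25, −0.50 and −0.67 (PGE2 in stimulated cells, stimulation without and with PGE2). An exact sign-flip test over the 4 pairs gave p = 0.125 for each, the smallest 4 pairs allow.

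With 1 library left out, the genes that rose and fell numbered 1 and 2 to 4 for PGE2 in stimulated cells, 1 to 2 and 23 to 27 in unstimulated cells, 22 to 25 and 6 for stimulation, 24 to 26 and 2 to 5 with PGE2, and 2 to 6 and 0 for the interaction. The 6 came without replicate 4 of stimulated cells with PGE2, the 2 risen genes without replicate 1 of unstimulated cells, and the 2 fallen genes without replicate 2 of unstimulated or replicate 1 or 2 of stimulated cells with PGE2. Ratios ranged over 0.20 to 0.33 (PGE2 in unstimulated cells) and 0.35 to 0.44 (stimulation) for *Impdh1* to *Impdh2*, 0.23 to 0.32, 0.81 to 0.89 and, with PGE2, 0.67 to 0.76 for *Prps1* to *Prps2*, and −0.28 to −0.23 (PGE2 in stimulated cells), −0.55 to −0.45 and −0.75 to −0.61 for *Rrm2* to *Rrm1*, and 4 against 3 cannot pass after adjustment.

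Of single genes, calls were lost in 26 cases and kept in 898 and, with a library left out, lost in 44 and kept in 716. Apart from the genes named above as weak, *Nme1* with PGE2 in stimulated cells (adjusted p = 0.0622), *Rrm2* in unstimulated cells (0.0571) and the interaction of *Dctd* (0.0581) were lost with limma on FPKM without a filter, and *Dut* with stimulation and PGE2 with upper-quartile factors (0.1001). Upper-quartile factors moved the median of all genes to −0.128 with stimulation and to −0.125 with PGE2 present.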
